A study of Mus musculus with 2 samples.

Results

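The elastic fibre genes described here are 10 genes chosen by symbol from the 32285 features of the count matrices: Eln, Fbn1, Fbln1, Fbln2, Fbln5, Emilin1, Mfap4, Mfap5, Lox and Loxl1. All 10 were found, each as 1 feature. None of them was used to sort cells into classes. Elastic fibres give the aorta its recoil. A core of cross-linked elastin, made from the soluble precursor that Eln encodes, lies on a scaffold of microfibrils whose main component is fibrillin-1 (Fbn1). Mfap4 and Mfap5 encode microfibril-associated glycoproteins, Emilin1 encodes a glycoprotein at the interface of elastin and microfibrils, and fibulin-5 (Fbln5) tethers elastin to microfibrils and to cells. Fibulin-1 (Fbln1) and fibulin-2 (Fbln2) are found in elastic tissue and basement membranes, while the copper enzymes of Lox and Loxl1 oxidise lysine residues so that elastin and collagen can be cross-linked. In the arterial media, smooth muscle is known as the main source of elastin during development.

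Thoracic and abdominal aortas of male C57BL6 littermates were digested to single cells and profiled by 10x 3′ v3 single-cell RNA sequencing. Each unique molecular identifier (UMI) in these data stands for 1 captured transcript end. The Cept1 group carried Cept1 fl/fl with VE-cadherin-Cre-ERT2, a tamoxifen-inducible Cre driven by an endothelial promoter, and is labelled as overexpressing Cept1, an enzyme of phosphatidylcholine and phosphatidylethanolamine synthesis, in endothelial cells. The control group was Cept1 fl/fl without Cre. The treatment described for both groups was 5 daily injections of 1 mg tamoxifen per mouse from at least 8 weeks of age, with 5 days of recovery, while the age label of both reads 6 to 8 weeks. The labels give 3 mice per condition and 1 library per group, without saying whether cells were pooled or which gate was used in the cell sorting step. With 1 library per group there is no replicate, so no difference between the groups was tested. Every interval given is an exact 95% interval that covers counting error only.

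The Cept1 library held 17728 barcodes with 95735360 UMIs, and the control library 14349 barcodes with 88220524 UMIs. After filtering, 11168 and 8729 cells were kept, with medians of 6438.5 and 6735 UMIs per cell, and 31 kept barcodes occurred in both libraries. Cells were placed in classes by the UMIs of fixed marker genes, without clustering, and cells with mixed markers entered no class. Throughout, paired values are given for the Cept1 library first and the control library second. The main classes held 672 and 575 smooth muscle cells, 5333 and 3844 fibroblasts, 1274 and 617 blood endothelial cells, 240 and 110 lymphatic endothelial cells, and 23 and 14 mesothelial cells. All 7 smooth muscle, fibroblast and endothelial markers and all 8 mesothelial markers were detected in their own class in both libraries. The same markers placed the cells, so this detection largely follows from the sorting into classes and is no independent check. Cept1 itself stood at 123 and 77.2 CPM, the usual scaled count, here the UMIs of a gene relative to all UMIs of the class, in endothelial cells, a log2 ratio of 0.68 (0.52 to 0.83). By subtype the ratio was 0.68 (0.48 to 0.89) in arterial, 0.91 (0.63 to 1.204) in capillary and -0.003 (-0.62 to 0.61) in venous cells, and 0.21 (-0.14 to 0.57) in lymphatic endothelium. The venous value came from 50 and 44 UMIs, too few to tell whether Cept1 was higher there. In smooth muscle Cept1 stood at 42.6 and 35.0 CPM, a log2 ratio of 0.29 (0.06 to 0.51), and in fibroblasts at 48.5 and 43.9 CPM, a log2 ratio of 0.14 (0.04 to 0.25). The ratio was 0.43 (0.10 to 0.75) in T cells, 0.24 (0.13 to 0.35) in myeloid cells and 0.12 (-1.12 to 1.34) in Schwann cells. It was -0.06 (-0.50 to 0.37) in B cells and -0.93 (-1.85 to -0.02) in mesothelial cells.

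The 10 genes lie on 8 chromosomes in the GRCm38 build (GENCODE vM21), and all are protein-coding. Eln lies at chr5:134702593-134747323 on the minus strand and Emilin1 at chr5:30913402-30921277 on the plus strand. Fbln2 lies at chr6:91212455-91272540 and Mfap5 at chr6:122505845-122529290, both on the plus strand. Fbn1 lies at chr2:125300594-125507993, Loxl1 at chr9:58287738-58313186, Fbln5 at chr12:101746565-101819055 and Lox at chr18:52516067-52529867, all on the minus strand. Mfap4 lies at chr11:61485431-61488900 and Fbln1 at chr15:85205949-85286535, both on the plus strand. Eln, Fbn1, Mfap4 and Lox each overlap a gene annotated on the other strand. The sources used here do not give how strand was used in counting.

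Each of the major wall cell types carried a different set of these genes, and no class was highest for all of them. T and B cells, which are not known to make elastic fibres, served as the measure of free RNA: summed over all 10 genes they held between 64.1 and 92.8 CPM in either library. All 10 genes stood at 5 or more times the T and B cell level, in both libraries, in the Pi16, Fmod and C7 fibroblasts. The same held for 8 of 10 in smooth muscle (Fbln1 and Fbln2 were the others), 7 of 10 in arterial endothelium, 3 of 10 in capillary endothelium and 0 of 10 in myeloid cells. Because each 3′ UMI stands for a transcript end, the CPM values were not divided by gene length.

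**Figure D1:**
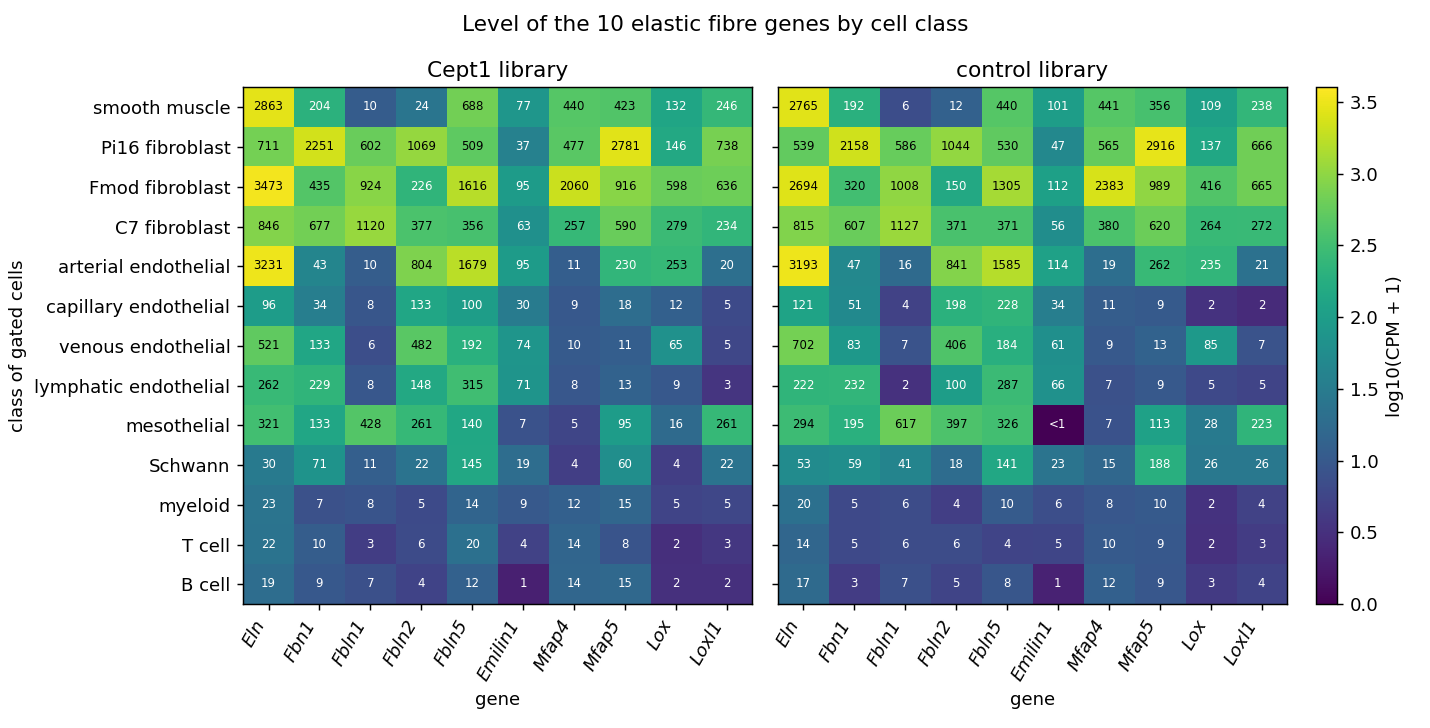
Level of each elastic fibre gene in each class of gated cells, with the Cept1 library on the left and the control library on the right; numbers in the cells are CPM and the colour is log10(CPM + 1). Eln was at or above 2694 CPM in smooth muscle, Fmod fibroblasts and arterial endothelium, while Fbn1 and Mfap5 were highest in Pi16 fibroblasts.

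As a share of UMIs, elastin transcripts were at least as abundant in arterial endothelial cells as in smooth muscle. Per cell they were fewer in arterial cells in both libraries. Arterial endothelium held 24541 and 10773 Eln UMIs in 852 and 297 cells, and smooth muscle 21562 and 26086 in 672 and 575. Smooth muscle cells were deeper, with means of 11207 and 16409 UMIs against 8914 and 11361.5 in arterial cells. Eln stood at 3231 and 3193 CPM in arterial endothelial cells, named from Bmx, Gja5, Gja4, Cytl1, Gkn3 and Bmp6. In Fmod fibroblasts, named from Fmod, Rbp4 and Ccn5, it stood at 3473 and 2694 CPM. In smooth muscle it stood at 2863 and 2765 CPM. The range that the 2 libraries span in Fmod fibroblasts overlapped both others, while arterial endothelium was 1.13-fold and 1.15-fold above smooth muscle within the Cept1 and the control library. Fibroblasts that met no subtype held 2119 and 1543 CPM. Below them came C7 fibroblasts (named from C7, Penk and Bmper) at 846 and 815 CPM and Pi16 fibroblasts (named from Pi16, Gfpt2, Dpp4, Cd55 and Sema3c) at 711 and 539 CPM. Venous endothelium held 521 and 702 CPM, a range that overlaps that of Pi16 fibroblasts. Mesothelial cells held 321 and 294 CPM, and lymphatic endothelium 262 and 222 CPM. Capillary endothelium, at 95.7 and 121 CPM, was 33.7-fold and 26.5-fold below arterial endothelium within the Cept1 and the control library. Of all Eln UMIs in kept cells, fibroblasts held 49.4% and 46.8%, smooth muscle 18.1% and 29.4%, and blood endothelium 21.2% and 13.7%.

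Markers of smooth muscle were not at 0 in arterial endothelial cells: there Acta2, Tagln and Myl9 summed to 927 and 634 CPM, against 28762 and 32612 CPM in smooth muscle. Smooth muscle held 0.1903 and 0.164 Eln UMIs per UMI of Acta2, which was not used to sort cells, and arterial endothelial cells held 6.19 and 8.84. Cells rich in other smooth muscle markers were kept out of the endothelial class, and the part of smooth muscle RNA in these levels was not tested. Eln was also spread over nearly all arterial endothelial cells. The median cell had 20 and 22 Eln UMIs, and the 10% of cells with the most held 35.0% and 34.3% of the UMIs.

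The microfibril genes were highest in fibroblasts, with Fbn1 and Mfap5 in a different fibroblast subtype from Mfap4. Fbn1 stood at 2251 and 2158 CPM in Pi16 fibroblasts, 677 and 607 CPM in C7 fibroblasts and 435 and 319.98 CPM in Fmod fibroblasts. The ranges of these 3 subtypes did not overlap. Lymphatic endothelium, at 229 and 232 CPM, and smooth muscle, at 204 and 192 CPM, came next, and arterial endothelium held 42.7 and 46.8 CPM. Within Pi16 fibroblasts Fbn1 was uneven: the median cell had 7 and 8 UMIs, the highest 493 and 343, and the top 10% of cells held 44.8% and 48.5% of the UMIs. Mfap5 stood at 2781 and 2916 CPM in Pi16 fibroblasts, 916 and 989 in Fmod fibroblasts, 589.8 and 619.6 in C7 fibroblasts, 423 and 356 in smooth muscle and 229.6 and 262 in arterial endothelium. The ranges of these neighbours did not overlap. Mfap4 was instead highest in Fmod fibroblasts, at 2059.8 and 2383 CPM, 4.32-fold and 4.22-fold above Pi16 fibroblasts. Smooth muscle held 440.3 and 441 CPM of Mfap4, and blood and lymphatic endothelium stood between 6.78 and 19.0 CPM, near the 14.1 and 10.4 CPM of T and B cells together. Emilin1 was low throughout, with its highest levels in arterial endothelium (94.8 and 114 CPM), Fmod fibroblasts (94.9 and 112 CPM) and smooth muscle (76.8 and 101 CPM), whose ranges overlap.

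The 3 fibulins followed different orders. Fbln5 was highest in arterial endothelium, at 1679 and 1585 CPM, and in Fmod fibroblasts, at 1616 and 1305 CPM, with overlapping ranges. Smooth muscle held 688 and 439.8 CPM, Pi16 fibroblasts 509 and 530.3 CPM, C7 fibroblasts 356 and 371 CPM and lymphatic endothelium 315 and 287 CPM. Fbln2 was highest in Pi16 fibroblasts, at 1069 and 1044 CPM, followed without overlap by arterial endothelium at 804 and 841 CPM. Venous endothelium held 482 and 406 CPM of Fbln2, C7 fibroblasts 377 and 371 CPM and Fmod fibroblasts 226 and 149.8 CPM. Fbln1 was highest in fibroblasts and mesothelium: C7 fibroblasts held 1120.4 and 1127 CPM, Fmod fibroblasts 924 and 1008 CPM, Pi16 fibroblasts 602 and 586 CPM and mesothelial cells 428 and 617 CPM. In smooth muscle Fbln1 stood at 10.2 and 6.15 CPM, beside 4.69 and 6.18 CPM in T and B cells. Fibroblasts held 91.6% and 91.4% of all Fbln1 UMIs of kept cells.

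Among the cross-linking enzymes, Lox was highest in Fmod fibroblasts, at 598 and 416 CPM, followed among the named subtypes by C7 fibroblasts at 279 and 264 CPM and arterial endothelium at 253 and 235 CPM. Pi16 fibroblasts held 146 and 137 CPM of Lox and smooth muscle 132 and 109 CPM. Loxl1 was highest in Pi16 fibroblasts, at 738 and 666 CPM, just above Fmod fibroblasts at 636 and 665 CPM. C7 fibroblasts, smooth muscle and mesothelial cells were alike in Loxl1, between 223 and 272 CPM with overlapping ranges. Arterial endothelium held 19.9 and 20.7 CPM of Loxl1, so it carried Lox with little Loxl1.

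Ratios between genes within a library, which do not depend on how levels are scaled, set the cell types apart. Smooth muscle held 14.0 and 14.4 Eln UMIs per Fbn1 UMI, and Fmod fibroblasts 7.98 and 8.42. Pi16 fibroblasts held 0.316 and 0.250, and arterial endothelium 75.7 and 68.2. The Lox to Loxl1 ratio was 12.7 and 11.3 in arterial endothelium, 0.534 and 0.458 in smooth muscle, 0.941 and 0.626 in Fmod fibroblasts and 0.198 and 0.205 in Pi16 fibroblasts. The Fbln1 to Fbln2 ratio was 4.09 and 6.73 in Fmod fibroblasts against 0.563 and 0.561 in Pi16 fibroblasts. The Mfap4 to Mfap5 ratio was 2.25 and 2.41 in Fmod fibroblasts against 0.171 and 0.194 in Pi16 fibroblasts. For each of these pairs, the difference between Pi16 and Fmod fibroblasts was larger than the difference between the libraries.

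**Figure D2:**
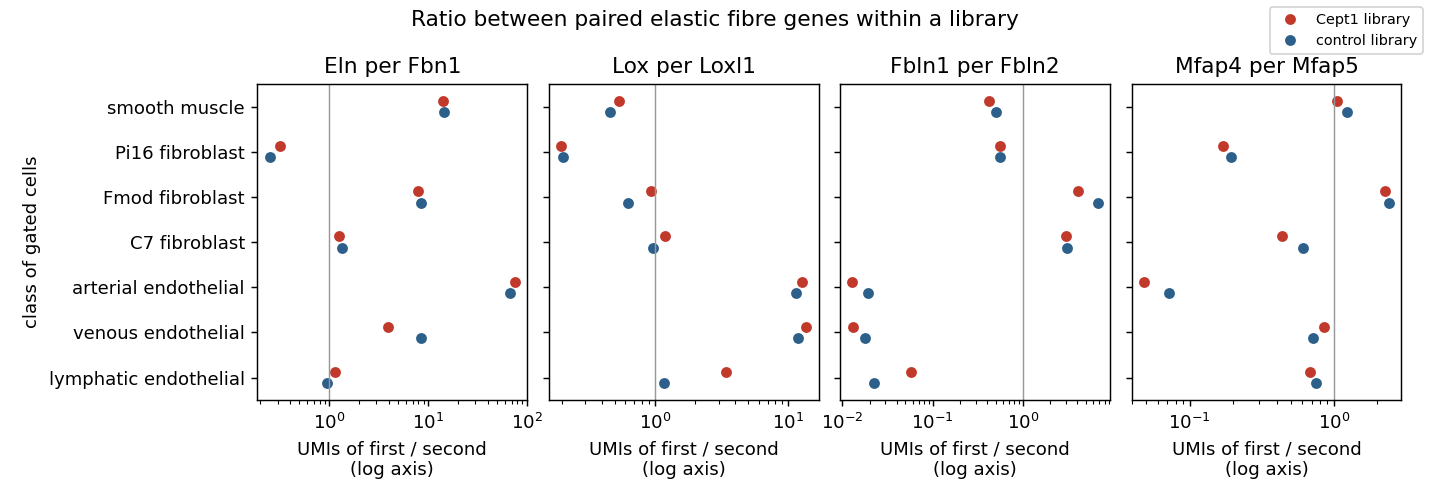
UMIs of the first gene per UMI of the second, on a log axis, by class (rows), for 4 pairs of elastic fibre genes; points are the Cept1 library (red) and the control library (blue). Eln per Fbn1 lay at or below 0.316 in Pi16 fibroblasts and at or above 68.2 in arterial endothelium, and Lox per Loxl1 was 12.7 and 11.3 in arterial endothelium.

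Counted cell by cell, with every cell thinned to 2000 UMIs and shallower cells left out, the genes were co-detected most often in Fmod fibroblasts. There a cell showed on average 6.33 and 5.92 of the 10 genes, against 5.43 and 5.48 in Pi16 fibroblasts, 4.30 and 4.56 in C7 fibroblasts, 3.56 and 3.29 in smooth muscle and 3.50 and 3.76 in arterial endothelium. Capillary endothelial cells showed 0.742 and 0.736 on average, and T cells 0.236 and 0.126. At that depth, Eln had a UMI in 92.5% (90.4 to 94.2) and 94.6% (91.3 to 97.0) of arterial endothelial cells and in 87.9% and 88.1% of smooth muscle cells. In T cells the share was 5.53% and 2.22%. These shares set the level of free RNA at that depth. Without thinning, Eln had a UMI in 97.8% and 98.7% of arterial endothelial cells and 97.2% and 97.6% of smooth muscle cells, against 13.5% and 10.6% of T cells, whose median depths were 6392 and 7296 UMIs. Mfap5 had a UMI in 94.4% and 93.4% of thinned Pi16 fibroblasts, and Fbn1 in 79.0% and 77.7%. The thinned median depth is equal by construction, and the unthinned medians of smooth muscle were 10776.5 and 15707 UMIs.

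**Figure D3:**
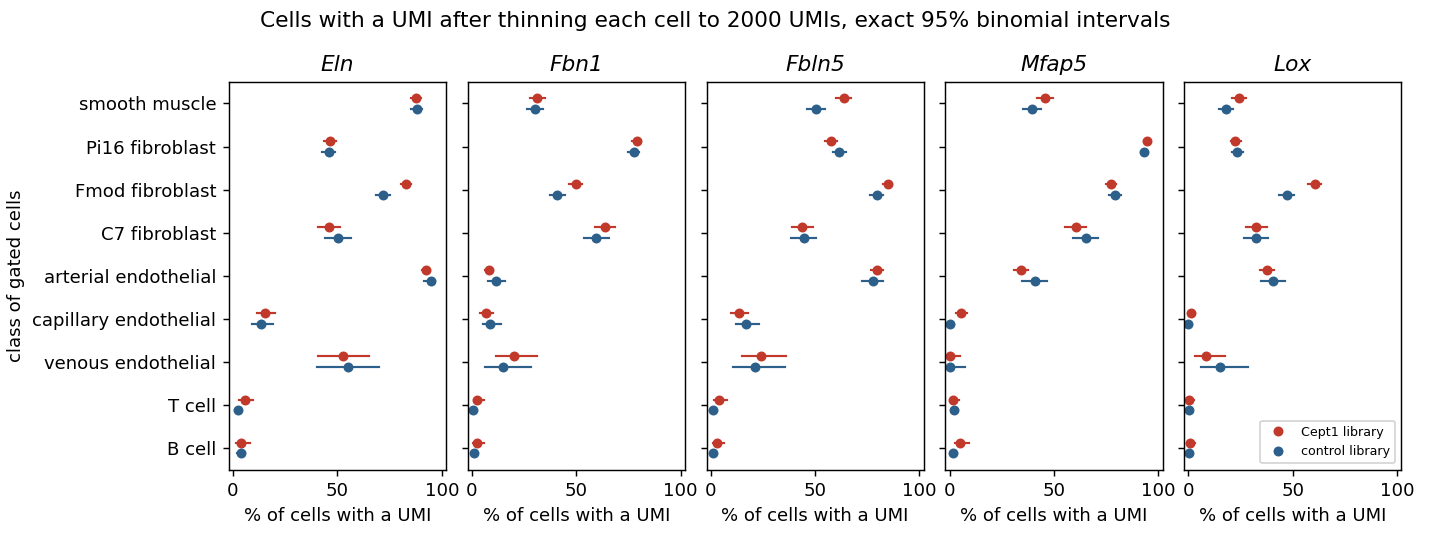
Share of cells with at least 1 UMI of the gene after thinning each cell to 2000 UMIs (x axis, percent), by class, for Eln, Fbn1, Fbln5, Mfap5 and Lox; points are the Cept1 library (red) and the control library (blue), and lines are exact 95% binomial intervals. Eln was detected in 92.5% and 94.6% of arterial endothelial cells and in 15.4% and 13.5% of capillary endothelial cells.

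Across 14 classes in both libraries, 28 points that share libraries and depth, the pairs of elastic fibre genes with the most similar profiles of log2(CPM + 1) were Mfap5 with Loxl1 (Pearson r = 0.94), Eln with Fbln5 (r = 0.92) and Eln with Lox (r = 0.92). The least similar were Fbln1 and Emilin1 (r = 0.20). Among 7423 genes, with elastic fibre genes and the markers used to sort cells left out, those most like Eln were Fhl1, Gxylt2 and Bgn. Their r ran from 0.95 to 0.97. Bgn, which encodes the proteoglycan biglycan, was also the gene most like Lox (r = 0.95), followed by Mgp and Gxylt2. Fbn1 was most like Tnxb (tenascin-X), Bmp1 (a procollagen protease) and Adamts5, Fbln1 most like Wnt5a, Dcn (decorin) and Glt8d2, and Fbln2 most like Cd34, Ackr3 and Fzd4. Fbln5 was most like Pam, Rabac1 and Golim4, and Emilin1 most like Ecm2, Med28 and Hoxb6. Mfap4 was most like Angpt4, Pax1 and Cpxm2, Mfap5 most like Omd, Col5a1 and Meg3, and Loxl1 most like Mmp23, Ogn and Cercam. These correlations are descriptions of 28 points that are not independent.

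The comparison of Cept1 overexpression with control asks how the elastic fibre genes stand in each wall cell type in mice labelled as overexpressing Cept1 in endothelium. A gene was counted as past 1.5-fold when its CPM differed by at least that factor and it had at least 50 UMIs over both libraries. Over 9 classes (smooth muscle, 3 fibroblast subtypes, 3 blood endothelial subtypes, lymphatic endothelium and mesothelium), 74 gene values had 50 UMIs. Of these, 6 were past 1.5-fold higher in the Cept1 library and 6 were past 1.5-fold lower. By class, the share of all genes with 50 UMIs past it higher ran from 1.67% (Pi16 fibroblasts) to 19.2% (mesothelium). The share past it lower ran from 3.49% (arterial endothelium) to 22.9% (mesothelium). Eln, Emilin1, Lox and Loxl1 were past 1.5-fold in none of the 9 classes.

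**Figure D4:**
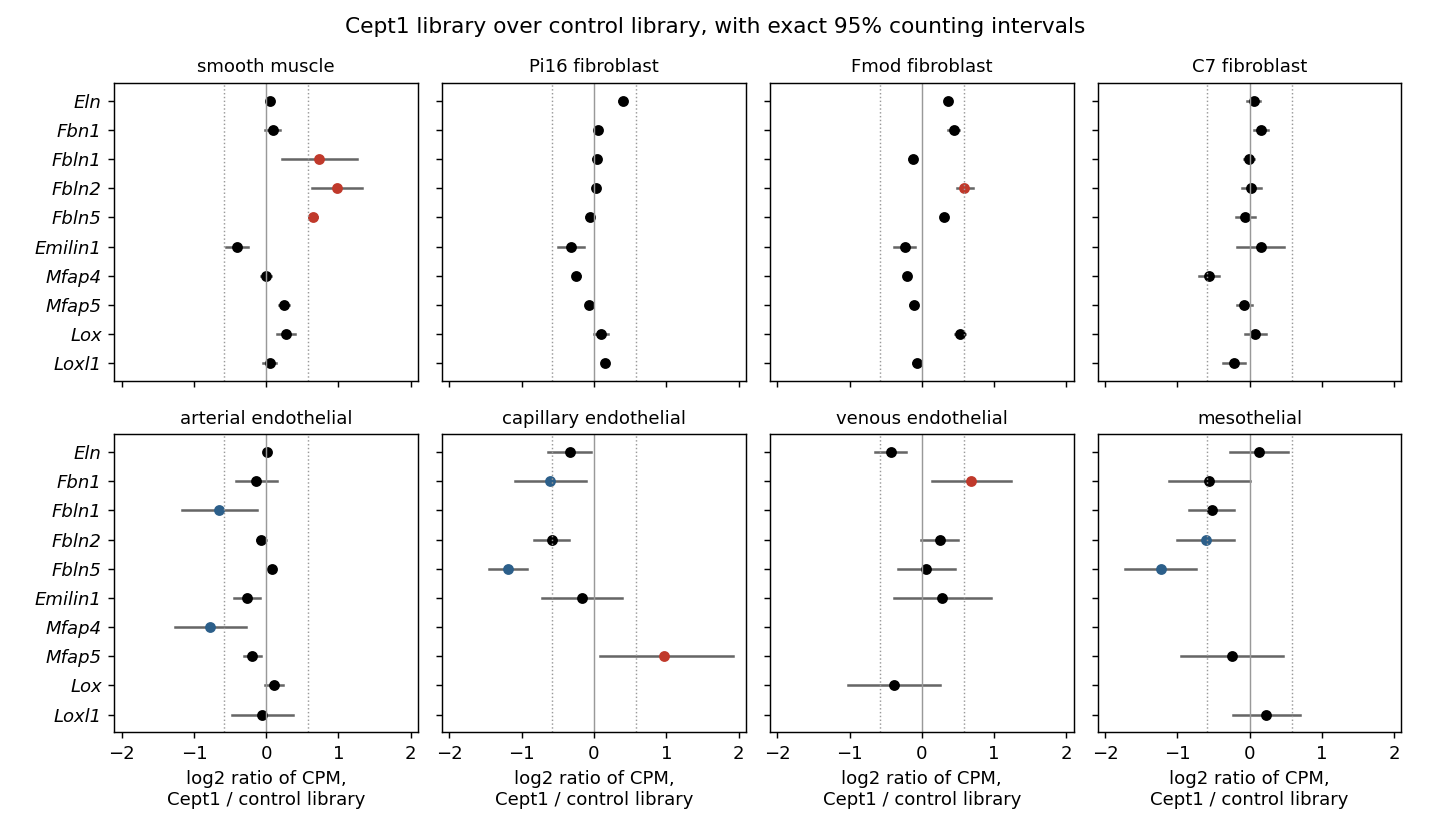
Log2 ratio of CPM, Cept1 library over control library, for each gene (rows) in 8 classes; points with at least 50 UMIs are drawn, lines are exact 95% counting intervals and dotted lines mark 1.5-fold. Red points are past 1.5-fold higher and blue points past 1.5-fold lower; smooth muscle had 3 red points, Fmod fibroblasts 1 and arterial endothelium 2 blue points.

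In smooth muscle, 3 fibulin genes stood higher in the Cept1 library while elastin, fibrillin-1, Mfap4 and Loxl1 stood close to control. Fbln5 stood at 688 CPM (669 to 707) and 439.8 CPM (427 to 453), a log2 ratio of 0.65 (0.59 to 0.70) from 5180 and 4150 UMIs. Fbln2 stood at 24.0 and 12.2 CPM, a log2 ratio of 0.98 (0.63 to 1.33) from 181 and 115 UMIs. Fbln1 stood at 10.2 and 6.15 CPM, a log2 ratio of 0.73 (0.22 to 1.25) from 77 and 58 UMIs. These 3 of 10 genes past 1.5-fold higher, with 0 lower, stand beside 3.04% of 11380 genes past it higher and 3.7% past it lower in smooth muscle. Both Fbln1 and Fbln2 were under 5 times the T and B cell level here in both libraries, since T and B cells held 4.69 and 6.18 CPM of Fbln1 and 5.11 and 5.28 CPM of Fbln2. The fibroblast markers in smooth muscle summed to 244 and 210.1 CPM. Their part in the 2 ratios was not tested. With every cell weighted equally the log2 ratio of Fbln1 was 0.21, and without the 8% of cells with the highest doublet scores it was 0.51.

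Smooth muscle cells of the control library were deeper, with a mean of 16409 UMIs against 11207 in the Cept1 library, so a higher share of UMIs need not mean more UMIs per cell. Fbln5 had 7.71 and 7.22 UMIs per cell, with a median of 5 in both libraries. With cells thinned to 2000 UMIs, 63.7% (59.9 to 67.4) and 50.5% (46.2 to 54.7) of smooth muscle cells had a Fbln5 UMI. The other genes lay nearer to 0. Emilin1 stood at 76.8 and 101 CPM, a log2 ratio of -0.40 (-0.55 to -0.25). Lox (0.27), Mfap5 (0.25), Fbn1 (0.09), Eln (0.05), Loxl1 (0.05) and Mfap4 (-0.002) followed. The median log2 ratio of the 10 genes was 0.17, beside -0.03 over all genes with 50 UMIs.

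In all gated fibroblasts pooled, 0 of 10 genes were past 1.5-fold in either direction, beside 2.31% of all genes higher and 4.76% lower. Eln stood at 1832 and 1349.7 CPM, a log2 ratio of 0.44 (0.42 to 0.46), and Lox at 356 and 278 CPM, a log2 ratio of 0.35 (0.31 to 0.39). Mfap4 stood lower, at 1118 and 1286 CPM, a log2 ratio of -0.20 (-0.22 to -0.18). The shares of the 3 subtypes among fibroblasts differed less between the libraries than those of endothelium, with Pi16 cells at 25.2% and 28.6%, Fmod cells at 24.4% and 23.1% and C7 cells at 8.16% and 7.75%.

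Fmod fibroblasts showed the widest spread among the fibroblast subtypes. Fbln2 stood at 226 and 149.8 CPM, a log2 ratio of 0.59 (0.48 to 0.70), and was the 1 of 10 genes past 1.5-fold, beside 2.74% of all genes higher and 4.03% lower. Its value lay at the threshold, since 4 of 12 other ways of processing put it below, the lowest being 0.30 with every cell weighted equally. Lox stood at 598 and 416 CPM (log2 ratio 0.52, 0.46 to 0.59) and Fbn1 at 435 and 319.98 CPM (0.44, 0.37 to 0.52). Eln stood at 3473 and 2694 CPM (0.37, 0.34 to 0.39) and Fbln5 at 1616 and 1305 CPM (0.31, 0.27 to 0.35). Emilin1 (-0.23), Mfap4 (-0.21), Fbln1 (-0.13), Mfap5 (-0.11) and Loxl1 (-0.06) stood lower. All 10 intervals excluded 0 on counting error, and the gene values split 5 higher and 5 lower, with a median of 0.12 beside -0.01 over all genes. After thinning, 60.4% (57.4 to 63.4) and 47.2% (43.6 to 50.7) of Fmod fibroblasts had a Lox UMI, and 83.1% and 72.0% had an Eln UMI. Per cell, Eln had 20.6 and 21.9 UMIs and Lox 3.55 and 3.38, in cells with a mean of 5939 and 8117 UMIs.

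In Pi16 fibroblasts, 0 of 10 genes were past 1.5-fold, beside 1.67% of all genes higher and 4.15% lower. Eln stood at 711 and 539 CPM, a log2 ratio of 0.40 (0.35 to 0.44). The most abundant genes of these cells were close between libraries, with log2 ratios of 0.06 (0.04 to 0.09) for Fbn1, -0.07 (-0.09 to -0.05) for Mfap5 and 0.03 (-0.00 to 0.07) for Fbln2. The lowest ratios were those of Emilin1 at -0.32 and Mfap4 at -0.24. The share of thinned Pi16 cells with an Eln UMI was 46.4% and 45.8%, and a cell held 6.05 and 6.02 Eln UMIs on average, in cells with a mean of 8514 and 11162 UMIs. The Eln difference in CPM was thus a difference in the share of UMIs, at nearly the same number per cell. In C7 fibroblasts, 0 of 10 genes were past 1.5-fold, beside 3.69% of all genes higher and 4.84% lower. Mfap4, at 257 and 380.4 CPM, had a log2 ratio of -0.56 (-0.70 to -0.42), and 7 of the 10 intervals included 0.

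In blood endothelium, pooled values and values within subtypes differed, and the makeup of the class differed between libraries. Arterial cells were 66.9% of gated endothelial cells in the Cept1 library, against 48.1% in control, and capillary cells 24.4% and 34.0%. Pooled over subtypes, Eln stood at 2437 and 1911 CPM, a log2 ratio of 0.35 (0.32 to 0.38). Fbln5 stood at 1271 and 979 CPM, a log2 ratio of 0.38 (0.33 to 0.42), and Lox at 194 and 139 CPM, a log2 ratio of 0.48 (0.36 to 0.59). Within arterial cells the same genes had log2 ratios of 0.02 (-0.02 to 0.05), 0.08 (0.04 to 0.13) and 0.11 (-0.01 to 0.23). With the 3 subtypes weighted equally, the median of the 10 genes was -0.04 instead of the pooled 0.16. In the pooled class Mfap4 was past 1.5-fold lower, at 10.3 and 15.8 CPM (log2 ratio -0.62, or -0.46 without the cell richest in Mfap4 in each library), and 0 genes were higher, beside 5.46% of all genes lower and 3.46% higher.

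**Figure D5:**
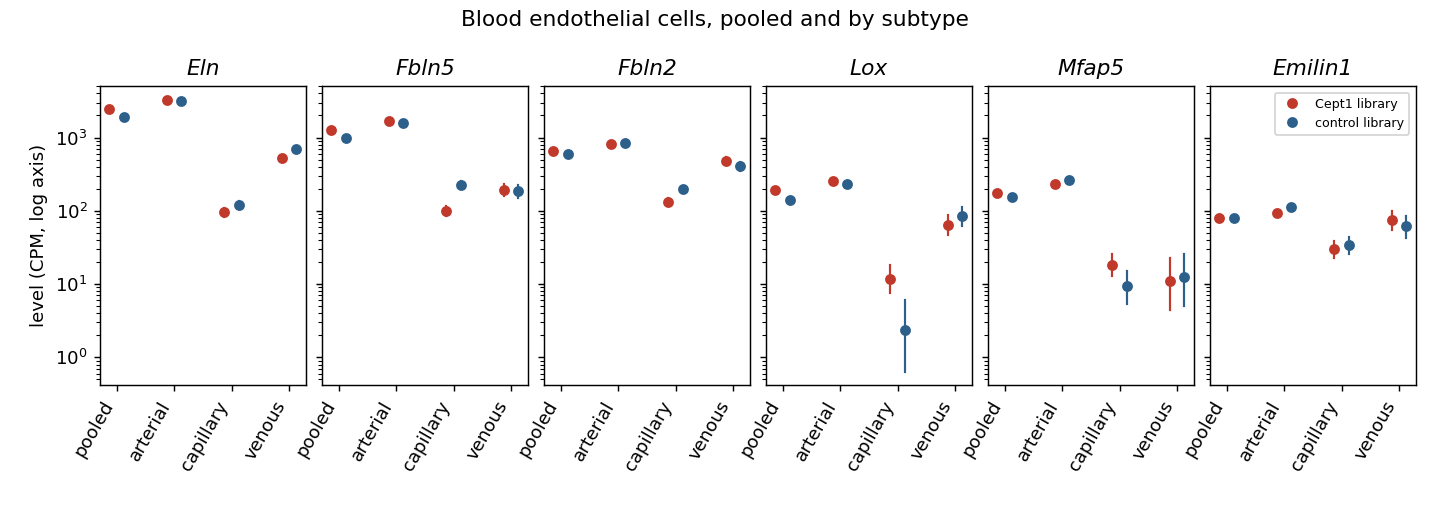
Level in CPM (log axis) of 6 elastic fibre genes in blood endothelial cells, pooled and within the arterial, capillary and venous subtypes; points are the Cept1 library (red) and the control library (blue), and lines are exact 95% Poisson intervals. Pooled Eln, Fbln5 and Lox were higher in the Cept1 library, while within arterial cells Eln stood at 3231 and 3193 CPM.

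Within arterial endothelium, Fbln1 and Mfap4 were past 1.5-fold lower and 0 genes were past it higher, beside 3.49% of all genes lower and 4.15% higher. Fbln1 stood at 10.4 and 16.3 CPM, a log2 ratio of -0.65 (-1.16 to -0.12), and Mfap4 at 11.1 and 19.0 CPM, a log2 ratio of -0.78 (-1.26 to -0.29). Both were at low counts, 79 and 55 UMIs for Fbln1 and 84 and 64 for Mfap4, and a single control cell held 29.7% of that library's Mfap4 UMIs. Without the cell richest in Mfap4 in each library its log2 ratio was -0.47 (-1.02 to 0.10), and at a gate purity of 10 in place of 4 it was 0.10, so the Mfap4 call did not hold. The Fbln1 ratio without its richest cells was -0.60. Fibroblast markers in arterial cells were also lower in the Cept1 library, with all 7 detected in both libraries and sums of 126 and 219.6 CPM. Their part in these 2 ratios was not tested. Fbln2, the second fibulin of these cells, stood at 804 and 841 CPM, a log2 ratio of -0.07 (-0.13 to -0.00), and Emilin1 at 94.8 and 114 CPM, a log2 ratio of -0.26 (-0.44 to -0.08).

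Capillary endothelial cells had the lowest Fbln5 ratio among the endothelial subtypes. Fbln5 stood at 100.1 CPM (86.2 to 116) and 228 CPM (206 to 252), a log2 ratio of -1.19 (-1.45 to -0.93) from 185 and 390 UMIs. The share of cells with a Fbln5 UMI was close, at 23.8% (19.2 to 28.9) and 24.8% (19.1 to 31.2), and after thinning 13.4% and 17.1%. In the control library the 10% of capillary cells with the most Fbln5 held 81.0% of the UMIs, with up to 48 in a cell, against 71.9% and up to 9 in the Cept1 library. Fbn1 was past 1.5-fold lower, at 33.5 and 50.9 CPM (-0.60, -1.10 to -0.12), or short of it at -0.52 without the richest cell of each library, and Fbln2 just short of it, at 133 and 198 CPM (-0.58, -0.83 to -0.34). Mfap5 was past it higher from 34 and 16 UMIs, at 18.4 and 9.36 CPM, beside 10.7 and 8.62 CPM in T and B cells. These counts of 2 lower and 1 higher, of 6 genes with 50 UMIs, stand beside 4.41% of all genes lower and 5.83% higher. Adipocyte markers in capillary cells summed to 134 and 32.8 CPM, pericyte markers to 73.6 and 100.1 CPM, and Acta2, Tagln and Myl9 to 140.1 and 259 CPM. All 3 of each were detected in both libraries. The 7 smooth muscle markers used to sort cells were level there, at 178 and 180 CPM in sum, with 7 and 5 detected. The part of the pericyte and smooth muscle markers was not tested. Without the richest cell of each library the Fbln5 ratio was -1.09 (-1.36 to -0.82). Without the cells holding any UMI of Adipoq, Plin1 or Cidec, Fbln5 in capillary cells had a log2 ratio of -1.25.

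In venous endothelium, 70 and 50 cells, Fbn1 was past 1.5-fold higher at 133 and 83.0 CPM, a log2 ratio of 0.68 (0.15 to 1.23) from 84 and 46 UMIs, beside 6.87% of all genes higher and 7.14% lower. The share of cells with an Fbn1 UMI was 50% and 60%, and 20% and 14.9% after thinning. Fibroblast markers in venous cells summed to 128 and 66.8 CPM, with all 7 detected in both libraries. Dcn, Col1a1 and Col1a2, which were not used to sort cells, went the other way, summing to 328 and 447 CPM. The part of either set was not tested. Eln stood at 521 and 702 CPM, a log2 ratio of -0.43 (-0.65 to -0.21). In lymphatic endothelium 0 of the 5 genes with 50 UMIs were past 1.5-fold, beside 5.63% of all genes higher and 4.84% lower. The highest ratio there was that of Fbln2, at 148 and 100.2 CPM, a log2 ratio of 0.56 (0.27 to 0.85). Its value lay near the threshold: only 6 of 12 other ways of processing kept it short of 1.5-fold, and the highest gave 1.075.

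Mesothelial cells, the lining of the outer surface, numbered 23 and 14, and 7 of the 10 genes reached 50 UMIs. Fbln5 stood at 139.6 and 326 CPM, a log2 ratio of -1.22 (-1.72 to -0.74), and Fbln2 at 261 and 397 CPM, a log2 ratio of -0.61 (-0.998 to -0.22). These 2 of 7 genes were past 1.5-fold lower and 0 higher, in a class where 22.9% of all genes were lower and 19.2% higher. A single control cell held 42 of the 92 Fbln5 UMIs and a single control cell 36 of the 112 Fbln2 UMIs. Without the richest cell of each library the ratios were -0.85 (-1.44 to -0.26) for Fbln5 and -0.58 (-1.03 to -0.12) for Fbln2, the latter short of 1.5-fold. With cells thinned to 2000 UMIs both reversed, to 0.13 for Fbln5 and 0.061 for Fbln2, from 14 and 19 UMIs. Endothelial markers there summed to 11.6 and 163 CPM, with 2 and 7 of 7 detected, and their part was not tested. Fbln1 in these cells stood at 428 and 617 CPM, a log2 ratio of -0.53 (-0.83 to -0.22). In myeloid cells the 10 genes summed to 101 and 75.3 CPM, beside 92.8 and 64.1 in T cells and 85.3 and 68.1 in B cells. There 2 of 10 (Mfap5 and Lox) were past 1.5-fold higher, beside 3.76% of all genes higher and 5.56% lower. Mfap5 stood at 14.6 and 9.58 CPM, beside 7.68 and 8.71 in T cells and 15.3 and 8.51 in B cells. Lox stood at 4.52 and 2.39 CPM, beside 2.09 and 2.23 in T cells and 2.19 and 3.04 in B cells. Schwann cells, 58 and 60 in number, held Fbn1, Fbln5, Emilin1, Mfap5 and Loxl1 at 5 or more times the T and B cell level in both libraries. Mfap5 stood there at 59.5 and 188 CPM, from 16 and 64 UMIs, a log2 ratio of -1.66 (-2.55 to -0.85). A single control cell held 24 of those UMIs, and without the richest cell of each library the ratio was -1.29 (-2.32 to -0.36), at 49.0 and 120.3 CPM. It was the 1 of 2 genes with 50 UMIs past 1.5-fold lower, in a class where 12.4% of all genes were lower and 11.6% higher.

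Of 22 further genes of elastic fibre assembly, at most 4 were past 1.5-fold in any class described here. They comprise Fbn2, Mfap2, Mfap3, Efemp1, Efemp2, Fbln7, Emilin2, Mmrn1 and Mmrn2, the latent TGF-beta binding proteins (Ltbp1 to Ltbp4), Loxl2, Loxl3 and Loxl4, the proteases and protease-like genes Adamts6, Adamts10, Adamtsl2, Adamtsl4 and Adamtsl5, and Bgn. In smooth muscle 1 of 16 with 50 UMIs was lower, Fbln7 at 27.5 and 42.1 CPM, and 1 was higher, Mmrn1 at 9.29 and 1.06 CPM. Of all genes there, 3.7% were lower and 3.04% higher. In pooled fibroblasts 0 of 22 were past it, in Pi16 fibroblasts 0 of 20 and in Fmod fibroblasts 1 of 19, Ltbp2 at 129.8 and 205 CPM (log2 ratio -0.66, -0.78 to -0.54). In C7 fibroblasts 1 of 17 was past it, Adamtsl2 at 19.7 and 9.13 CPM, from 55 and 24 UMIs. Of all genes, 2.74% were higher and 4.03% lower in Fmod fibroblasts, and 3.69% higher and 4.84% lower in C7 fibroblasts.

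In arterial endothelium 2 of 16 partner genes were higher and 2 lower, beside 4.15% of all genes higher and 3.49% lower. Ltbp1, which binds latent TGF-beta to the matrix, stood at 30.3 and 16.6 CPM (log2 ratio 0.87, 0.44 to 1.32). Mmrn1, a multimerin also found in platelets and lymphatic endothelium and used here as a lymphatic marker, had 123 UMIs and 1 UMI (log2 ratio 5.77, 3.27 to 11.09). The platelet markers Pf4 and Ppbp summed to 64.5 and 24.6 CPM in the same cells. The 4 lymphatic markers, Mmrn1 among them, summed to 41.1 and 7.11 CPM in arterial cells, 71.4 and 8.78 CPM in capillary cells and 56.0 and 3.603 CPM in smooth muscle. The part of either set was not tested. Mfap2, which encodes a microfibril glycoprotein, stood lower at 8.16 and 15.4 CPM, and Adamtsl4 lower at 21.9 and 33.5 CPM. In pooled endothelium Loxl2 was the 1 of 17 past 1.5-fold, at 4.54 and 10.5 CPM, from 47 and 67 UMIs. Of all genes there, 3.46% were higher and 5.46% lower. In capillary endothelium 2 of 8 were higher, Mmrn1 from 56 and 3 UMIs (log2 ratio 4.11, 2.49 to 6.43) and Ltbp1 at 26.5 and 17.6 CPM. In venous endothelium 2 of 10 were higher, Mfap2 from 33 and 17 UMIs and Mfap3 from 37 and 19. In lymphatic endothelium 1 of 13 was higher, Mfap3 at 47.9 and 30.1 CPM, and 1 lower, Fbln7 at 14.0 and 27.1 CPM. The shares of all genes higher were 5.83% in capillary, 6.87% in venous and 5.63% in lymphatic endothelium. Those lower were 4.41%, 7.14% and 4.84%. In mesothelial cells 3 of 6 were lower, Ltbp4 at 365 and 865 CPM, Efemp1 (fibulin-3) at 928 and 1822 CPM and Ltbp3 at 95.4 and 159 CPM, and Bgn was higher at 556 and 323 CPM. That class had 23 and 14 cells, and 22.9% of all its genes were lower and 19.2% higher. The part of single cells in these 4 values was not tested.

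Among 11 genes of the elastin receptor complex and elastin-degrading enzymes, 0 of 8 with 50 UMIs were past 1.5-fold in smooth muscle, 0 of 9 in pooled fibroblasts, 0 of 8 in Fmod fibroblasts and 0 of 8 in arterial endothelium. These counts stand beside the shares of all genes given above for the same classes. In C7 fibroblasts 1 of 7 was past it, Ctsk, which encodes the elastolytic protease cathepsin K, lower at 164 and 259 CPM (log2 ratio -0.66, -0.83 to -0.48). In Pi16 fibroblasts 1 of 9 was past it, Mmp9, higher at 3.68 and 2.12 CPM, from 42 and 26 UMIs. In venous endothelium 1 of 3 was past it, Mmp14, a membrane-bound matrix metalloproteinase, higher from 44 and 19 UMIs. Of all genes, 3.69% were higher and 4.84% lower in C7 fibroblasts, and 1.67% higher and 4.15% lower in Pi16 fibroblasts. The shares in venous endothelium were 6.87% higher and 7.14% lower. In myeloid cells 4 of 11 were higher and 1 lower, beside 3.76% of all genes higher and 5.56% lower. Mmp12, the macrophage elastase, stood at 79.7 and 34.5 CPM (log2 ratio 1.21, 1.04 to 1.38), and Mmp14 at 18.0 and 7.28 CPM (1.31, 0.95 to 1.69). Elane, the neutrophil elastase, had 0 of 17017179 myeloid UMIs in the Cept1 library and stood at 62.2 CPM in the control library. Against a floor of 3 UMIs, which is 0.176 CPM, it was at least 353-fold lower in the Cept1 library, a fold that depends on the chosen floor. The myeloid class, 1945 and 957 cells, was not split into subtypes. The part of its makeup in the ratios of Elane, Mmp12 and Mmp14 was not tested.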

How the data were processed

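The deposited values are raw counts, UMIs per gene and cell barcode, which per the file headers came from Cell Ranger 7.2.0. Seurat (version not given) and the mm10 build are also named in the submitters' processing notes. How doublets and free RNA were handled before deposit was not stated in the sources used here, and the lowest barcode had 500 UMIs. All per-sample columns were used (0 left out).

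Kept cells had 500 genes or more, and no more than 10% of their UMIs were mitochondrial. A cell entered 1 of 8 classes when at least 3 markers of that class were detected and their UMIs were at least 4 times those of every other class. Subtypes needed at least 2 markers and 2 times the UMIs of every other subtype. Cells with mixed markers entered no class, which was the main treatment of doublets. UMIs were summed per class and library and scaled to CPM by all UMIs of the class. Levels have exact Poisson intervals, log2 ratios have Clopper-Pearson intervals (exact) for how UMIs split, and shares exact binomial intervals, all at 95% and for counting error only. All genes with at least 50 UMIs in a class form the background of its 1.5-fold counts. The elastic fibre genes are named in every class. From the partner and elastase lists, genes past 1.5-fold are named, up to 4 per class and list, in smooth muscle and the named fibroblast, endothelial and mesothelial classes. For myeloid cells only Mmp12, Mmp14 and Elane are named. Of 14 partner genes with 50 UMIs there, 3 were higher and 1 lower, beside 3.76% of all genes higher and 5.56% lower. The 3 genes most like each elastic fibre gene came from 7423 genes that reached 50 CPM in at least 1 class of each library. The elastic fibre genes and the markers used to sort cells were left out of that ranking, though the count of 7423 was taken before this. The genes, lists and markers were chosen with earlier results of these data known.

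Gene positions were matched by identifier to GENCODE vM21, which held 32158 of 32285 identifiers. Alternatives covered the gate, cell filters, scaling (TMM from edgeR 4.0.16 in R 4.3.3, for scaling factors alone), cell weights, thinning, doublet scores (Scrublet in scanpy 1.11.5), free RNA, single cells rich in a gene and the UMI minimum. The summing and ratio steps were tested on simulated data. Python 3.11.15, numpy 2.4.6, scipy 1.17.1, pandas 2.3.3 and matplotlib 3.10.9 were used.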

Additional observations from a re-analysis of the deposited data

Results flagged for a closer look

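Some genes stood past 1.5-fold higher in the Cept1 library in one class and past 1.5-fold lower in another, and these differences between classes were not tested. Fbln5 had a log2 ratio of 0.65 in smooth muscle, -1.19 in capillary endothelium and -1.22 in mesothelial cells. The mesothelial value rests on 23 and 14 cells, a single control cell held 42 of 92 UMIs, and thinning turned it to 0.13. Fbln2 had 0.98 in smooth muscle and 0.59 in Fmod fibroblasts, against -0.61 in mesothelial cells, where thinning gave 0.061. Fbln1 had 0.73 in smooth muscle and -0.65 in arterial endothelium, both from fewer than 80 UMIs per library. In neither class was Fbln1 at 5 or more times the T and B cell level in both libraries. Fbn1 had 0.68 in venous and -0.60 in capillary endothelium, from 84 and 46 UMIs and from 62 and 87 UMIs. The venous call held in 9 of 12 other ways of processing and the capillary call in 4 of 12. In capillary cells Fbn1 was not at 5 or more times the T and B cell level in both libraries.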

How the results depend on the processing

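Of 1145 gene values under alternatives, 1004 stayed within their counting interval, 138 moved beyond it and 3 reversed. A value was called reversed only when its main ratio was past 1.5-fold and its sign changed. Sign changes of smaller ratios count among the other values. For Fbln2 in pooled fibroblasts the sign held in 3 of 13 alternatives, and Eln in pooled endothelium ran from -0.06 to 0.39. The reversed values were Mfap4 in arterial endothelium (0.10, at a gate purity of 10), and Fbln2 (0.061) and Fbln5 (0.13) in thinned mesothelial cells, from 19 and 14 UMIs. Gate purity is the required excess of a class's marker UMIs, otherwise 4. The following are log2 medians of the 10 genes or counts past 1.5-fold. Keeping cells with 1000 genes or more and a mitochondrial share of at most 5% gave medians of 0.29 in smooth muscle and 0.067 in endothelium, 2 genes higher in Fmod fibroblasts, 1 lower in C7 fibroblasts and 0 lower in endothelium. Keeping cells with 200 genes and at most 20% gave 0 higher in Fmod fibroblasts and 0 lower in endothelium. Subtracting the T and B cell level gave a median of 0.056 in smooth muscle and 1 lower in C7 fibroblasts, as did leaving out the highest 8% of doublet scores in C7 fibroblasts. The fibroblast median of 0.01 became 0.042 with TMM scaling, 0.044 with thinning, 0.046 with cells weighted equally and 0.0501 with subtypes weighted equally. The endothelial median of 0.16 became 0.30 at a gate purity of 10, with 1 higher and 0 lower, and -0.044 with subtypes weighted equally, with 0 lower. Equal cell weights gave 3 lower in endothelium, 0 higher in Fmod fibroblasts and 0 lower in mesothelial cells. A gate purity of 2 gave 0 higher in Fmod fibroblasts and a mesothelial median of -0.088, and a purity of 10 gave 1 higher in mesothelial cells. Thinning gave 0 higher in Fmod fibroblasts and left no mesothelial gene with 50 UMIs, so it has no value there. The mesothelial count of lower genes was 1 with TMM scaling, 1 with totals without mitochondrial, ribosomal and haemoglobin genes, 1 at 200 UMIs and 4 with no minimum. TMM scaling moved the mesothelial median of all genes from -0.12 to 0.03. The causes were not tested. Leaving out cells with adipocyte marker UMIs, and leaving out the cell richest in a gene in each library, were chosen after seeing the data. The latter gave 0 lower in endothelium. No paired analysis was possible because each group has 1 library, and for the same reason no library could be left out. The mesothelial values rest on 23 and 14 cells, with medians of 16830 and 16320 UMIs.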
